A study of Mus musculus with 6 samples.

Results

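The 9 interferon response genes described here were measured by stranded RNA-seq of polyadenylated RNA in whole pancreas of 8-week-old mice. They comprise 4 transcription factors (Stat2, Irf1, Irf7 and Irf9) and 5 effectors (Isg15, Ifit1, Ifit3, Oasl2 and Bst2). They were picked by symbol, with the row of highest mean taken for a repeated symbol, and all 9 of 9 were found among the 23099 symbols of the files. The 3 wild-type (WT) libraries were compared with 3 libraries of Ela1-Myc mice, whose Myc transgene is driven by the elastase 1 promoter, active in the acinar cells that secrete digestive enzymes. No treatment is given for either group, and the labels do not tell whether each library is a different animal; p-values therefore cover only the variation among these libraries.

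Interferons are secreted proteins that warn cells of virus or of misplaced nucleic acid. Type I interferon, bound to its receptor, activates JAK kinases, which phosphorylate STAT proteins. STAT2 and IRF9 then act in a complex that binds the interferon-stimulated response element (ISRE) in front of antiviral genes. Interferon-gamma acts mainly through the gamma-activated sequence (GAS), and IRF1 is a classical target of that branch. Acinar, stromal and immune cells can all express these genes, so in whole tissue more expressing cells and more RNA per cell cannot be told apart.

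Values are the authors' adjusted FPKM, a fragment count set against transcript length and library size, divided here by 100000, and the depth behind them is unknown. Myc was 52.0, 34.4 and 34.2 in Ela1-Myc replicates 1 to 3; WT replicate 2 had 4.10 and the other WT libraries a listed 0. The 10 acinar markers summed to 270000, 816000 and 488000 in WT and to 371000, 165000 and 235000 in Ela1-Myc, which overlap. After the scaling described in the next paragraph, the sums were 675000, 950000 and 831000 in WT and 234000, 109000 and 114000 in Ela1-Myc, without overlap. Of the 10 markers, 4 were called lower and 1 higher on the deposited scale, and 8 lower and 1 higher after scaling. Of all tested genes, 0.239% were called lower and 70.2% higher on the deposited scale, and 7.08% and 17.0% after scaling. The part of acinar content in the interferon genes was not tested. A listed 0 is no proof of absence: the glycolytic gene Gapdh is listed at 0 in WT replicates 1 and 3 and at 69.25 in WT replicate 2. Of the 8802 tested genes (mean of at least 1), 12.1%, 6.73% and 16.2% carry a listed 0 in WT replicates 1 to 3; the Ela1-Myc shares are 0, 0.329% and 0.148%. The RNA integrity number was 7.3, 7.3 and 7.1 in WT and 8.8, 7.2 and 8.3 in Ela1-Myc; 5 of these 6 values lie below the cutoff stated in the labels' protocol. The part of RNA integrity and of the listed zeros in the results below was not tested.

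On the deposited scale, meaning the values divided by 100000 with no further scaling, most tested genes had their higher values in Ela1-Myc, so tests and marker sums are also given after median-of-ratios scaling, which divides every library by the median ratio of its genes to their geometric means. The median gene lay 1.22 log2 units higher on the deposited scale and 0.223 higher after scaling. Of the calls, 99.7% were higher and 0.339% lower on the deposited scale, 70.6% and 29.4% after scaling, and 36.2% and 63.8% under quantile normalization (11.3% and 20.0% of tested genes). With the digestive enzymes left out and totals made equal, 82.7% of the calls were higher and 17.3% lower (21.7% and 4.54% of tested genes).

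The promoters are shown first. ISRE and GAS matches in them were not used to choose the genes. The genes were, however, listed by name as interferon response genes, a class in which such elements are known. The motif counts therefore describe the list and not these libraries. Each window of the RefSeq table (GRCm38.p6) spans 300 bases, from 250 before to 50 after a transcription start, and all 9 genes matched. The ISRE core was searched as GAAA NN GAAA (N is any base) and the GAS as TTCNNNGAA, on both strands, with overlapping matches kept. An ISRE match stood in a window of 5 of the 9 genes, against 3.99% of all 27025 genes with a window and 3.44% of all 32851 windows. A GAS match stood in 2 of the 9, against 9.55% of genes and 8.3% of windows. Isg15 is printed whole, and the others as the stretch around their matches. Sequences run in the direction of the gene, and capitals mark matches, where a match on the opposite strand reads TTTC NN TTTC.
Isg15 (chr4:156200769-156201068, minus strand): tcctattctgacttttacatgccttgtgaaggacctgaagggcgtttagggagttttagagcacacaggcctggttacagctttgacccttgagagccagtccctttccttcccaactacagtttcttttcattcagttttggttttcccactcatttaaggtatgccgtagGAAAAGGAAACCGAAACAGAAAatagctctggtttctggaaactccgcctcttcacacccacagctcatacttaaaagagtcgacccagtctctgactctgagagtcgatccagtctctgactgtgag
Ifit1 (chr19:34640770-34640828, plus strand): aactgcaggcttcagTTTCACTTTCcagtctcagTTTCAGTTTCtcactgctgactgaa
Ifit3 (chr19:34583358-34583431, plus strand): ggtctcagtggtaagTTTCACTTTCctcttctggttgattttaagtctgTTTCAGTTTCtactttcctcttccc
Bst2 (chr8:71537572-71537623, minus strand): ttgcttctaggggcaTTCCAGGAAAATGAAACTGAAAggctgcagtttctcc
Stat2 (chr10:128270261-128270300, plus strand): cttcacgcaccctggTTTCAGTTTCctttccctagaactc
Irf1 (chr11:53769909-53769947, plus strand): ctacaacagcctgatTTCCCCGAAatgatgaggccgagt

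Isg15 held 3 overlapping ISRE matches from position -78 to -57, counted from the start base as 0. Ifit1 and Ifit3 each held 2 separate matches on the opposite strand, one TTTCACTTTC and one TTTCAGTTTC. In Ifit1 they began at positions -104 and -85, and in Ifit3 at -156 and -122. Bst2 held 2 overlapping ISRE matches, the first of which overlapped its GAS match, within the run from -136 to -115. Stat2 held 1 ISRE match, from -222 to -213, and Irf1 held a GAS match, from -90 to -82 of the first of its 2 starts. These letters were not found in the windows of Irf7, Irf9 and Oasl2.

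**Figure D1:**
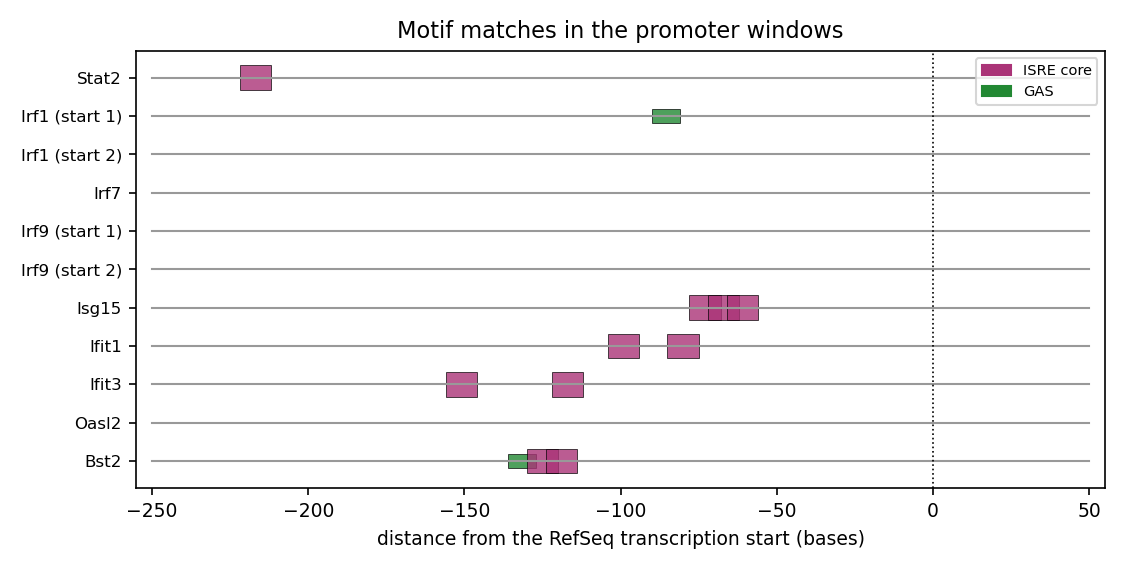
Motif matches in the promoter windows of the 9 genes, by distance in bases from the RefSeq transcription start (0, dotted line); tall boxes are ISRE core matches and short boxes GAS matches. Isg15, Ifit1, Ifit3, Bst2 and Stat2 hold ISRE matches, and Irf1 (start 1) and Bst2 hold a GAS match.

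The 9 genes lay higher in every Ela1-Myc library than in any WT library, and 5 of them were listed at 0 in all 3 WT libraries. All 9 were called higher on the deposited scale, where 70.2% of tested genes were called higher and 0.239% lower, and 8 of 9 after scaling, where 17.0% were called higher and 7.08% lower. The groups did not overlap for 9 of 9 on both scales, against 75.3% of tested genes on the deposited scale and 28.9% after scaling. Only 1 of the 9, Bst2, had a WT mean that met the filter by itself, so the other 8 were tested because of their Ela1-Myc values, and their counts carry that choice. Calls are those of limma on log2(value + 1) at a Benjamini-Hochberg adjusted p of 0.05 over all tested genes, a scale that understates the change of low genes. The exact two-sided permutation test gave p = 0.1 for each of the 9, the smallest that 3 against 3 libraries can give.

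The median log2 change of the 9 genes was 3.43 on the deposited scale and 2.75 after scaling, beside 1.22 and 0.223 for all tested genes. With 7 of 9 genes listed at 0 in at least 1 WT library, against 20.5% of tested genes, that median depends on the pseudocount; it was 6.62, beside 1.8 for all tested genes, with a pseudocount of 0.1. Those listed at 0 in all 3 WT libraries were 5 of 9, against 3.35% of tested genes (295). WT replicate 2, the WT library with the fewest listed zeros, still listed 5 of the 9 at 0.

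**Figure D2:**
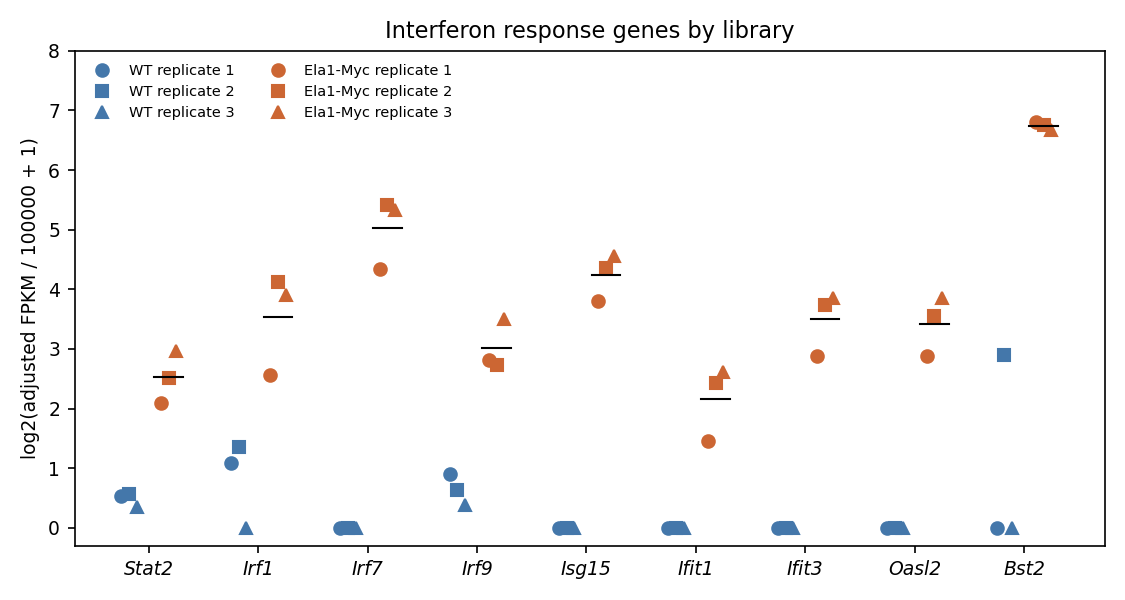
Value of each of the 9 genes in each library, as log2(adjusted FPKM / 100000 + 1); colours mark the groups, symbols the replicates, and the black line the Ela1-Myc mean. Every Ela1-Myc point lies above every WT point, and Irf7, Isg15, Ifit1, Ifit3 and Oasl2 sit at 0 in all 3 WT libraries.

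Among the transcription factors, Stat2 and Irf9 gave measured values in all 6 libraries. Stat2, the interferon-specific STAT (chromosome 10, 128270576 to 128292849, GRCm38), measured 0.450, 0.474 and 0.274 in WT replicates 1 to 3; its Ela1-Myc replicates 1 to 3 had 3.25, 4.69 and 6.83. The lowest Ela1-Myc value was thus well clear of the highest WT value. The mean rose from 0.399 ± 0.109 to 4.93 ± 1.8 (SD, n = 3 each), a 12.3-fold ratio on the deposited scale that was 3.95-fold after scaling. The log2 change was 2.04 ± 0.301 (SE; limma adjusted p = 0.000103) on the deposited scale and 1.16 ± 0.226 (adjusted p = 0.0145) after scaling.

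Irf9, the DNA-binding partner of STAT2 (chromosome 14, 55603985 to 55610030), measured 0.874, 0.559 and 0.303 in WT against 6.06, 5.65 and 10.3 in Ela1-Myc. Its groups did not overlap, and WT replicate 1 was the highest WT library. The means were 0.579 ± 0.286 and 7.34 ± 2.58 (SD, n = 3 each), a ratio of 12.7-fold on the deposited scale and 3.74-fold after scaling. The log2 change was 2.37 ± 0.332 (SE; limma adjusted p = 7.06e-05) and, after scaling, 1.37 ± 0.314 (adjusted p = 0.0243). After scaling, both calls were lost when certain libraries were left out: Stat2 lost its call without Ela1-Myc replicate 2 or 3 (adjusted p = 0.0702 and 0.0794), and Irf9 without WT replicate 3 or any 1 Ela1-Myc replicate (adjusted p of 0.0664, 0.0552, 0.084 and 0.106).

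Irf1, the factor induced by interferon-gamma (chromosome 11, 53770014 to 53778374), was at 1.13 and 1.57 in WT replicates 1 and 2, listed at 0 in WT replicate 3, and reached 4.90, 16.5 and 14 in Ela1-Myc. Ela1-Myc replicate 1 lay closer to the WT values than to the other Ela1-Myc replicates. Irf1 passed on the deposited scale (limma adjusted p = 0.000316) and not after scaling (log2 change 1.71, adjusted p = 0.0757), where its Ela1-Myc values of 3.09, 10.9 and 6.80 began just above the highest WT value of 2.82. It was the 1 member of the 9 not called after scaling.

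Irf7, the factor that amplifies interferon production (chromosome 7, 141263183 to 141266424), was listed at 0 in each WT library and reached 19.2, 41.5 and 39.4 in Ela1-Myc. It was called higher on both scales (limma adjusted p = 1.61e-06 and, after scaling, 0.000606). Here and for the effectors below, a listed 0 entered the fit as if it had been measured. Ranked by lowest Ela1-Myc value among the 295 tested genes listed at 0 in all 3 WT libraries, Irf7 was 25th, Isg15 35th, Ifit3 66th, Oasl2 67th and Ifit1 194th.

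Of the 5 effectors, 4 were listed at 0 in all 3 WT libraries, and all 5 had values above 0 in every Ela1-Myc library. Isg15 (chromosome 4, 156199424 to 156200818), a ubiquitin-like protein that is joined to other proteins, was listed at 0 in each WT library and reached 12.9, 19.4 and 22.5 in Ela1-Myc (limma adjusted p = 1.61e-06 and, after scaling, 0.0004). Its values stayed within 1.74-fold of each other across the Ela1-Myc libraries. Oasl2 (chromosome 5, 114896934 to 114912245), of the oligoadenylate synthetase-like family, was listed at 0 in each WT library and reached 6.34, 10.7 and 13.4 in Ela1-Myc (limma adjusted p = 4.06e-06 and, after scaling, 0.000872).

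Ifit3 and Ifit1, effectors of the same gene family, lie in a cluster on chromosome 19 (34583529 to 34588982 and 34640889 to 34650009). Ifit3 was listed at 0 in each WT library and reached 6.37, 12.4 and 13.5 in Ela1-Myc (limma adjusted p = 4.06e-06 and, after scaling, 0.00107). Ifit1 was likewise listed at 0 in WT and stood at 1.73, 4.39 and 5.14 in Ela1-Myc (limma adjusted p = 7.28e-05 and, after scaling, 0.00669). Without Ela1-Myc replicate 3, Ifit1 missed the threshold after scaling (adjusted p = 0.0516). Reads of this cluster are hard to place between copies: I830012O16Rik, the row of the near-identical copy Ifit3b, was listed at 0 in WT and stood at 2.39, 4.39 and 5.50 in Ela1-Myc. Single values of Ifit3 are uncertain for that reason. For Ifit1, reads shared with other copies were not examined, so its single values are uncertain as well.

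Bst2, tetherin, a membrane protein that holds budding virus at the cell surface (chromosome 8, 71534262 to 71537437), was the most abundant of the 9 per length. Its Ela1-Myc values were 111, 107 and 101; WT replicate 2 had 6.42 and the other WT libraries a listed 0. On the deposited scale these lay within 1.1-fold of each other, the narrowest spread of the 9; after scaling they were 70.2, 71.0 and 49.0, a wider spread than that of Irf9 (3.82, 3.73 and 4.99). It passed on both scales (limma adjusted p = 3.36e-05 and, after scaling, 0.00878). With a pseudocount of 1 added before the division by 100000, which stretches the distance to a listed 0, its adjusted p was 0.0546.

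By mean level in Ela1-Myc on the per-length deposited scale, the order was Bst2 (107 ± 5.15), Irf7 (33.4 ± 12.3), Isg15 (18.3 ± 4.86), Irf1 (11.8 ± 6.12), Ifit3 (10.8 ± 3.83), Oasl2 (10.2 ± 3.59), Irf9 (7.34 ± 2.58), Stat2 (4.93 ± 1.8) and Ifit1 (3.76 ± 1.79) (SD, n = 3 each). Only Bst2 was clear of its neighbour in this order, and the ranges of all other neighbours overlapped. Within single libraries the order was steadier, since each gene was above the next in all 3 libraries, except Irf1 over Ifit3, which held in 2 of 3.

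A gene's place within its own library does not move when a whole library is rescaled. Bst2 exceeded 96.4%, 96.4% and 96.5% of tested genes in Ela1-Myc replicates 1 to 3, and 76.5% in WT replicate 2. Irf7 exceeded 84.3%, 92.2% and 91.8% of tested genes in Ela1-Myc, and Isg15 78.1%, 85.0% and 86.3%. Both were thus among the higher genes of the Ela1-Myc libraries while listed at 0 in WT. Ifit3 and Oasl2 exceeded 60.6% to 77.9% of tested genes in Ela1-Myc, and Ifit1 14.6% to 48.1%.

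Stat2 exceeded 31.6%, 15.9% and 22.4% of tested genes in WT replicates 1 to 3; in Ela1-Myc the values were 37.9%, 50.4% and 58.1%. Irf9 exceeded 50.4%, 18.5% and 23.3% in WT and 59.2%, 56.2% and 71.4% in Ela1-Myc. The groups did not overlap for either gene by this measure, but the share of all tested genes without overlap was not computed for it. Both genes were tested because of their Ela1-Myc values, and their places carry that choice. Irf1 did overlap: it exceeded 57.6% and 43.6% in WT replicates 1 and 2, and 52.0%, 82.7% and 78.8% in Ela1-Myc.

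**Figure D3:**
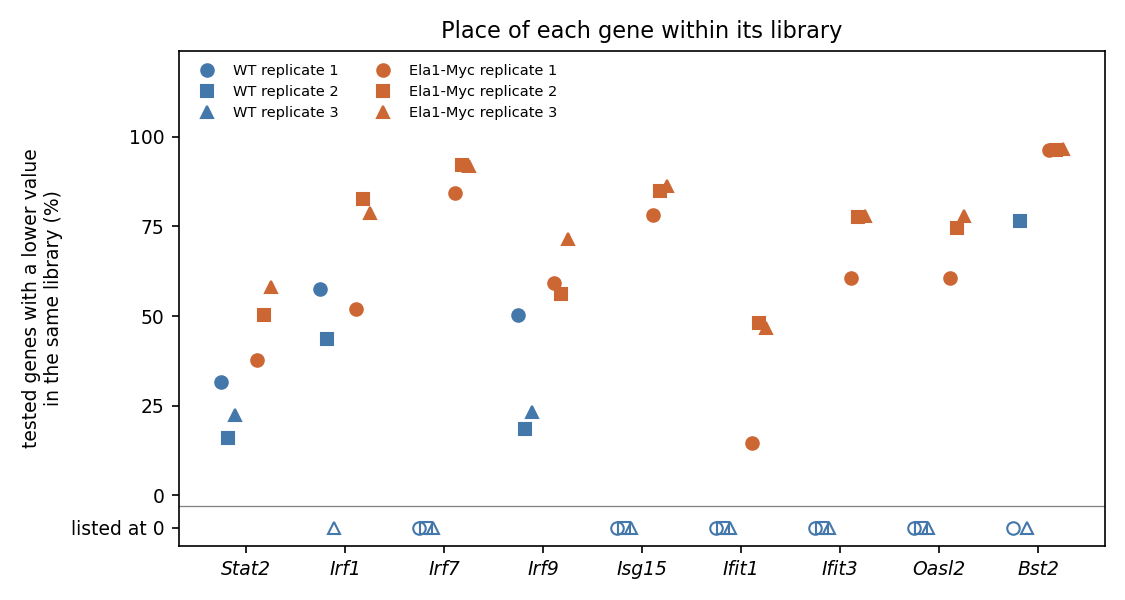
Percent of the 8802 tested genes with a lower value than the named gene in the same library; colours mark the groups and symbols the replicates, and open symbols below the line are values listed at 0. Bst2 and Irf7 stand highest in Ela1-Myc, and Irf1 is the 1 gene whose WT and Ela1-Myc places overlap among values above 0.

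Within the Ela1-Myc group, replicate 1 had the lowest value for 7 of the 9 genes on both scales, where it had the lowest value for 44.0% of tested genes on the deposited scale and 33.1% after scaling. Irf9 was lowest in replicate 2 and Bst2 in replicate 3. On the deposited scale Irf1 varied most, with a 3.37-fold ratio of highest to lowest, and Ifit1 next at 2.97-fold. The same library had the highest Myc value of the 3, 52.0, and the highest RNA integrity number, 8.8.

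Macrophage markers rose alongside the interferon genes. The 12 macrophage markers summed to 32.9, 59.0 and 0.952 in WT replicates 1 to 3; in Ela1-Myc the values were 501, 1350 and 1089, and Cd68 and Aif1 were listed at 0 in all 3 WT libraries. After scaling the sums were 82.2, 68.7 and 1.62 in WT and 316, 891 and 528 in Ela1-Myc. All 12 were called higher on the deposited scale and 10 after scaling, beside 70.2% and 17.0% of all tested genes. Cd68 and Aif1, at least, were tested because of their Ela1-Myc values, so these counts carry that choice. Of the 12, 10 had a listed 0 for 1 or more WT replicates, beside 20.5% of all tested genes. Replicate 1 was the lowest Ela1-Myc library on both scales. The part of macrophage content in the interferon genes was not tested.

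Lymphocyte markers separated the groups less cleanly, since, after scaling, the T, B and NK cell sums of WT replicate 1 (10.2, 94.1 and 6.06) each exceeded those of Ela1-Myc replicate 1 (3.24, 10.1 and 1.48). The 6 T cell markers summed to 4.09 in WT replicate 1, with all 6 listed at 0 in WT replicates 2 and 3, and to 5.14, 49.4 and 27.1 in Ela1-Myc. The 5 B cell markers summed to 37.6, 0.419 and 0.0349 in WT and to 16, 167 and 100 in Ela1-Myc, so WT replicate 1 exceeded Ela1-Myc replicate 1. NK cell markers summed to 2.42 in WT replicate 1, 0 in the other WT libraries, and 2.35, 10.6 and 8.79 in Ela1-Myc.

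Markers of plasmacytoid dendritic cells, the specialised producers of type I interferon, were low throughout. The 4 markers summed to 0.338, 0.319 and 0.183 in WT and to 1.91, 2.43 and 2.27 in Ela1-Myc, and none reached the filter; after scaling they summed to at most 0.846 in WT and at least 1.1 in Ela1-Myc. Neutrophil markers summed to 56.5, 4.42 and 17.2 in WT and to 19.6, 80.9 and 52.2 in Ela1-Myc, with groups that overlapped on both scales. Stellate and fibroblast markers summed to 52.0, 96.5 and 47.9 in WT and to 310.0, 416 and 478 in Ela1-Myc; after scaling they summed to at most 130.0 in WT and at least 196 in Ela1-Myc. Duct markers summed to at most 74.6 in WT and at least 126 in Ela1-Myc, but overlapped after scaling, with 86.7 in WT replicate 2 and 79.8 in Ela1-Myc replicate 1. Endothelial markers summed to at most 19.1 in WT and at least 29.7 in Ela1-Myc; after scaling they overlapped, at 35.9, 22.3 and 21.1 in WT and 18.7, 22.4 and 16.7 in Ela1-Myc, with the lower mean in Ela1-Myc. Islet markers, all listed at 0 in WT replicate 1, reached 2476 in WT replicate 2 and overlapped between the groups on both scales. Adipocyte markers overlapped on both scales as well, at 241, 44.0 and 15 in WT and 151, 533 and 247 in Ela1-Myc. The part of these cell types in the interferon genes was not tested.

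**Figure D4:**
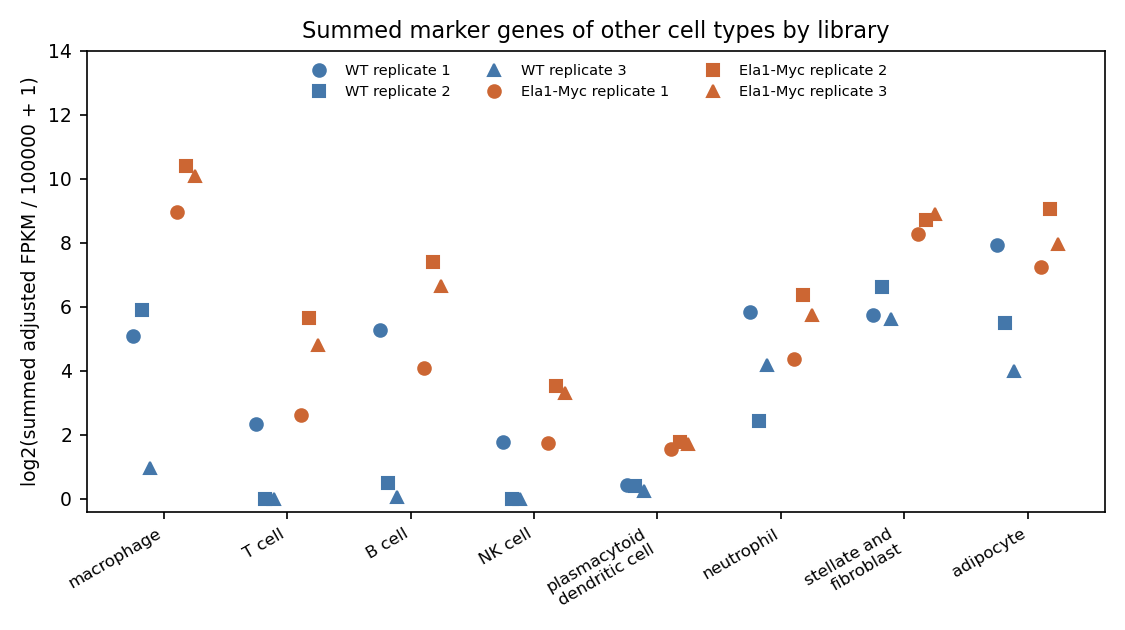
Summed values of marker genes of 8 other cell types in each library on the deposited scale, as log2(sum of adjusted FPKM / 100000 + 1); colours mark the groups and symbols the replicates. Macrophage sums are 501 to 1350 in Ela1-Myc against at most 59.0 in WT, while B cell, NK cell, neutrophil and adipocyte sums overlap between the groups.

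Beyond the 9 genes, 95 other interferon pathway genes were found in the files. Of these, 73 reached the filter; 24 of the 73 had a WT mean at the filter or above, against 60.9% of all tested genes, so the others were tested because of their Ela1-Myc values and their counts carry that choice. On the deposited scale 70 of the 73 were called higher and none lower, beside 70.2% of all tested genes called higher. After scaling 32 were higher and none lower, beside 17.0%. All 32 had also passed on the deposited scale, as had all 1495 tested genes called higher after scaling. The median log2 change of the 73 tested pathway genes was 2.29 and, after scaling, 1.42, beside 1.22 and 0.223 for all tested genes.

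No interferon gene reached the filter. The values of 6 of the 9 ligand rows (Ifna1, Ifna2, Ifnk, Ifne, Il28a and Il28b) were the constant that 4459 rows share within each WT library, with 0 in every Ela1-Myc library. Ifng, the gene of interferon-gamma and the ligand with the highest mean, was listed at 0 in each WT library and reached 0.00534, 0.0804 and 0.0571 in Ela1-Myc. These values lie far below the filter, and no ligand was tested.

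Receptor and signalling genes mostly passed on the deposited scale and missed the threshold after scaling. Of 5 tested receptor genes 4 were called higher on the deposited scale and none after scaling, beside 70.2% and 17.0% of all tested genes. Their median log2 change was 1.17 and, after scaling, 0.273, beside 1.22 and 0.223 for all tested genes. Il10rb, the shared receptor chain of interferon-lambda with the highest mean of the list, averaged 6.78 ± 3.35 over WT against 13.6 ± 1.41 over Ela1-Myc (SD, n = 3 each) and passed on neither scale (limma adjusted p = 0.088 and 0.297). Ifnar1 and Ifnar2, the chains of the type I interferon receptor, were chosen after their values were seen; they passed on the deposited scale (limma adjusted p = 0.00133 and 0.00533) and not after scaling (0.139 and 0.503). Of the 8 other signalling genes 7 were higher on the deposited scale and 1 after scaling, beside the same 70.2% and 17.0%. That gene, Irf5, a factor of the Toll-like receptor response, was at 0.282 in WT replicate 1, listed at 0 in WT replicates 2 and 3, and reached 3.20, 10.1 and 10.3 in Ela1-Myc.

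Among nucleic acid sensors and adaptors all 12 tested genes were higher on the deposited scale and 5 after scaling. The shares of all tested genes called higher were 70.2% and 17.0%. Myd88, the adaptor of most Toll-like receptors, measured 0.750, 0.889 and 0.516 in WT against 4.85, 10.5 and 8.62 in Ela1-Myc (limma adjusted p = 0.000104 and, after scaling, 0.0255). Dhx58, a helicase of the RIG-I family, was at 0.0423 and 0.197 in WT replicates 1 and 2, listed at 0 in WT replicate 3, and reached 2.67, 4.24 and 5.09 in Ela1-Myc. Zbp1, a sensor of Z-form nucleic acid, was at 1.23 in WT replicate 1, listed at 0 in the other WT libraries, and reached 5.81, 17.9 and 15.2 in Ela1-Myc. Both passed on both scales.

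Other antiviral effectors were higher for 22 of 22 tested genes on the deposited scale and 13 of 22 after scaling. Among all tested genes these shares were 70.2% and 17.0%. Oas1a, an oligoadenylate synthetase, and Rtp4, an interferon-induced transmembrane chaperone, were listed at 0 in all 3 WT libraries. Oas1a stood at 7.49, 14.2 and 13.4 in Ela1-Myc, and Rtp4 at 4.13, 10.2 and 10.9. Ifi35 was at 0.269 and 1.26 in WT replicates 1 and 2, listed at 0 in WT replicate 3, and reached 7.88, 14.1 and 12.0 in Ela1-Myc. Oas1a and its neighbour Oas1g are close copies whose reads are hard to separate.

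The enzymes that join ISG15 to proteins and remove it were called higher on both scales for all 4 tested genes of 5. On both scales 17.0% of all tested genes were called higher. None of the 4 had a WT mean that met the filter, so they were tested because of their Ela1-Myc values. Uba7, the activating enzyme, was at 0.353 and 0.200 in WT replicates 1 and 2, listed at 0 in WT replicate 3, and reached 2.71, 6.14 and 6.31 in Ela1-Myc (limma adjusted p = 6.13e-05 and, after scaling, 0.018). Ube2l6, the conjugating enzyme, was at 0.841 and 0.183 in WT replicates 1 and 2, listed at 0 in WT replicate 3, and reached 6.77, 15.2 and 14 in Ela1-Myc (limma adjusted p = 2.19e-05 and, after scaling, 0.0179). Usp18, which removes ISG15 and dampens receptor signalling, was listed at 0 in each WT library and reached 4.76, 9.39 and 7.94 in Ela1-Myc. As for Isg15 itself, Ela1-Myc replicate 1 was the lowest Ela1-Myc library for all 3 of these genes. It was not for Trim25, the remaining tested gene, named after its values were seen, at 5.71, 3.8 and 8.11 in Ela1-Myc.

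Interferon-gamma-induced GTPases were higher for 9 of 9 tested genes on the deposited scale and 4 after scaling, beside 70.2% and 17.0% of tested genes. Igtp was at 0.101 in WT replicate 1, listed at 0 in the other WT libraries, and reached 2.73, 11.1 and 10.2 in Ela1-Myc. Irgm2 was listed at 0 in each WT library and reached 2.97, 5.31 and 8.43, and Gbp3 rose from at most 0.0293 in WT to 1.69, 6.14 and 6.72 in Ela1-Myc. The ISRE core stood in the promoter windows of 8 of the 9 GTPase genes with a window, the highest share of the pathway lists. Among all genes with a window its share was 3.99%. This core stood in none of 4 ISG15 conjugation genes, none of 5 receptor genes and 1 of 7 signalling genes. A GAS match stood in 5 of the 9 GTPase genes, also the highest share of the pathway lists, against 9.55% of all genes.

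Immunoproteasome and peptide loading genes were higher for 9 of 10 tested genes on the deposited scale and 5 after scaling. The corresponding shares of all tested genes were 70.2% and 17.0%. Psmb8, a catalytic subunit of the immunoproteasome, was at 0.156 and 1.13 in WT replicates 1 and 2, listed at 0 in WT replicate 3, and reached 12.3, 54.2 and 43.4 in Ela1-Myc. The proteasome activator genes Psme1 and Psme2 had values of 3.73 and 4.06 in WT replicate 2 and a listed 0 in the other WT libraries. In Ela1-Myc Psme1 stood at 24.1, 66.6 and 50.6 and Psme2 at 21.1, 55.9 and 42.5. The 3 tested negative regulators were higher on the deposited scale and none was after scaling; Usp25 averaged 0.683 ± 0.150 over WT against 2.71 ± 1.18 in Ela1-Myc (SD, n = 3 each; limma adjusted p = 0.00425 and, after scaling, 0.618).

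**Figure D5:**
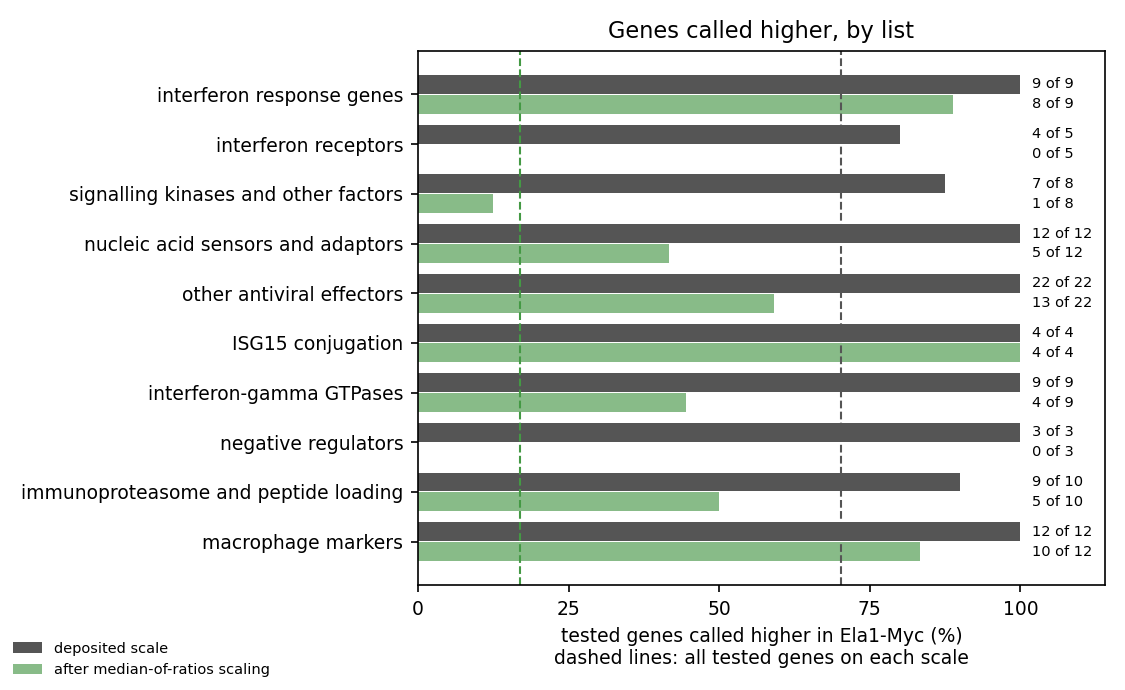
Percent of tested genes called higher in Ela1-Myc (limma, adjusted p of 0.05) in the 9 interferon response genes, the other pathway lists and the macrophage markers, on the deposited scale (dark) and after median-of-ratios scaling (light); dashed lines give all tested genes, 70.2% and 17.0%. Counts stand at the right: 8 of 9 interferon response genes, 4 of 4 ISG15 conjugation genes and 0 of 5 receptors passed after scaling. The filter falls unevenly on these lists, so their counts cannot be set against each other. By WT mean, 8 of the 9 interferon response genes and all 4 ISG15 conjugation genes were below the filter. The receptors Ifnar2, Ifngr2 and Il10rb met it in WT.

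Profiles over the 6 libraries were set against the mean profile of the 9, for tested genes outside every list and above 0 in each library. The nearest were Polr2h, Phf5a, Fstl1, Cmtm3 and Ubap2l. Genes with a listed 0, as 7 of the 9 have in at least 1 WT library, were not searched, so nearer ones may have been missed. The measure was the root mean square difference of centred log2(value + 1) after scaling, over 6919 genes above 0 in all 6 libraries. It was 0.449 for Polr2h, a subunit of RNA polymerases, and 0.523 for Ubap2l. Polr2h measured 0.631, 1.46 and 0.279 in WT against 9.99, 13.5 and 12.5 in Ela1-Myc. Fstl1, a secreted glycoprotein of stromal cells, measured 0.132, 2.64 and 0.253 in WT against 9.71, 17.3 and 19.6 in Ela1-Myc.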

How the data were processed

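Polyadenylated RNA of whole pancreas, with ERCC spike-in RNA added, was sequenced as stranded libraries on a Genome Analyzer IIx, per the labels' protocols. The authors deposited 1 adjusted FPKM value per gene and library, per the file headers. The tools listed, per the submitters' processing notes, include Cufflinks 2.0.2, TopHat2 2.0.4 with Bowtie, and affy, with build GRCm38. The sources used here do not give the FPKM adjustment. All values were divided by 100000, since they lie far above the usual range. Start positions are printed 1-based. Symbols were matched to 23099 names, and the 8802 whose mean reached 1 entered a limma fit (version 3.58.1, R 4.3.3) of genotype alone, two-sided, with variance trended on intensity on log2 values, after a pseudocount of 1 was added to the divided values. The filter used the deposited scale in every alternative. The script was tested on simulated data. Spike-in values and read counts were not used here. Median-of-ratios factors came from genes above 0 in all 6 libraries.

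Named were all 9 members and Myc; in each pathway list up to 3 genes that passed on both scales with the largest change on the deposited scale, or else the gene with the highest mean; and the 5 genes nearest in profile. One further gene named by the rule is not reported here. The members and lists were chosen with earlier results of these data known. Replicates carry no number in the labels and were numbered in accession order. Python 3.11.15 and matplotlib 3.10.9 drew the figures.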

Additional observations from a re-analysis of the deposited data

How the results depend on the processing

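Over 25 alternatives, 190 of 208 refitted member results kept direction and call, 18 lost the call and none changed direction. Irf7, Isg15, Ifit3 and Oasl2 kept the call in each of the 23 alternatives that tested them. All of these genes were listed at 0 in all 3 WT libraries. Leaving out WT libraries therefore could not move their log2 change on the deposited scale. The alternatives limited to genes above 0 in every library could not test them. Their kept calls thus rest on listed zeros taken as measured. Irf1 lost it in 10 of 23 (adjusted p of 7.09e-05 to 0.231, or 9.66e-07 with array weights, a fit that stopped before convergence), Irf9 in 4 of 24, Stat2 in 2 of 24, and Ifit1 (of 22) and Bst2 (of 23) in 1 each.

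The total of called genes, 6203 on the deposited scale, was 2118 after median-of-ratios scaling, 2754 under quantile normalization, 2298 without digestive enzymes, 3375 with a pseudocount of 1 added before the division by 100000, 1750 with a mean of at least 5 (3162 genes tested), and, with scaling, 1328 when each library had to exceed 0. Leaving out 1 library in turn gave 3942 to 7453, the lowest without Ela1-Myc replicate 3, and 570 to 2486 after scaling (2339, 2486 and 1293 without WT replicates 1 to 3, and 1606, 688 and 570 without Ela1-Myc replicates 1 to 3). The cause was not tested.

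The members called were 2 of 2 tested among genes above 0 in all 6 libraries, on the deposited scale and after scaling, since that filter leaves only Stat2 and Irf9. Leaving out 1 library gave 9 on the deposited scale and 5 to 9 after scaling, with 5 without Ela1-Myc replicate 3. Leaving out WT replicates 1 and 3, chosen after seeing the data because of their listed zeros, gave 3134 genes and 9 members called, and 1782 genes and 8 members after scaling; the lone WT library is then assumed to vary like the Ela1-Myc group. No paired analysis was possible because the labels carry no replicate numbers. Without read counts the depth is unknown, so no detection limit can be given for a value listed at 0.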
